A study of Mus musculus with 24 samples.

Results

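The IL-12 family cytokines and their receptors were followed in mouse peritoneal macrophages through 7 genes, of 54532 features in the count table. These were the chains Il12a (p35), Il12b (p40), Il23a (p19), Il27 (p28) and Ebi3, and the receptor chains Il12rb1 and Il12rb2. The members were taken by gene symbol, and all 7 were found. A filter on low counts passed 6 of them; Il23a, with 19 counts over the 24 libraries together, did not pass and is described by its counts.

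Cytokines of this family are heterodimers that share chains. Il12a pairs with Il12b to form IL-12, Il23a with Il12b to form IL-23, Il27 with Ebi3 to form IL-27, and Il12a with Ebi3 to form IL-35. Activated macrophages and dendritic cells are a major source of IL-12, which acts on T and NK cells and favours their production of interferon gamma. IL-12 signals through Il12rb1 and Il12rb2, IL-23 through Il12rb1 and Il23r, and IL-27 through Il27ra and Il6st (gp130), with Janus kinases and STAT proteins downstream.

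The cells were in 3 states, each with and without ONX-0914, an inhibitor of the immunoproteasome subunit PSMB8 (LMP7). M1+ONX-0914 cells received LPS, IFN-γ and the inhibitor, and M1 cells LPS and IFN-γ. M2+ONX-0914 cells received IL4 and the inhibitor, and M2 cells IL4. M0+ONX-0914 cells received the inhibitor alone, and M0 cells were the control. Each of the 6 groups had 4 libraries of polyA RNA, and each library pooled cells of 2 to 3 mice to 50000 cells. The sources used here give no doses, times, strain, sex or age.

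Total counts, in units of 1e6, ran from 18.2 to 22.9 per library. M1 replicate 2 stood apart: mitochondrial genes took 0.300% of its counts, against 1.07% to 1.14% in the other M1 libraries, and its correlation with them was 0.984 to 0.986, where all other M1 pairs reached at least 0.996. Results on the 7 genes in M1 are therefore also given without it, and those on the pathway lists where a call changed. Levels are counts per 1e6 counts (CPM), scaled by TMM to correct for library composition. The macrophage label was matched by marker genes, 8 in all, which summed to 9031 to 9487 CPM in M1+ONX-0914, 11535 to 14153 CPM in M1 and 12514 to 14530 CPM in M0. Lyz2 carried most of these sums, with means of 6189 CPM in M1+ONX-0914, 8582 CPM in M1 and 10488 CPM in M0. Other cell types were at the margin of detection or low. The neutrophil genes Ly6g, S100a9 and Retnlg had no count in any library, nor had the NK cell gene Ncr1. S100a8, of the same neutrophil list, averaged 7.30 CPM in M1+ONX-0914, 8.57 CPM in M1 and 4.63 CPM in M0. It carried most of that list's sum, which was 5.26 to 12.1 CPM in M1. The plasmacytoid dendritic cell gene Siglech was at 0 in 5 groups. The 9 B cell markers summed to 37.3 to 40.5 CPM in M1+ONX-0914 and 64.0 to 75.9 CPM in M1, to 57.4 to 64.9 CPM in M2+ONX-0914 and 105 to 112 CPM in M2, and to 55.4 to 60.8 CPM in M0+ONX-0914 and 93.7 to 96.7 CPM in M0. The 8 dendritic cell markers summed to 8.18 to 9.95 CPM in M1+ONX-0914 and 9.48 to 12.8 CPM in M1, and to 17.3 to 23.3 CPM in M2+ONX-0914 and 33.5 to 36.5 CPM in M2. Single genes carried most of the B cell sums, and of the dendritic cell sums in M2+ONX-0914 and M2. Cd22 averaged 36.8 CPM in M1+ONX-0914, 62.1 CPM in M1, 60.0 CPM in M2+ONX-0914 and 101 CPM in M2. Batf3, a transcription factor, averaged 14.6 CPM in M2+ONX-0914 and 29.6 CPM in M2. In both of these groups Flt3, Xcr1, Clec9a and Cd209a were each under 1 CPM, and Zbtb46 and Dpp4 were above 1 CPM. Zbtb46 averaged higher in M2 than in M0, and Dpp4 lower. The part of these cells in the results below was not tested.

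Promoter windows, 250 bases before to 50 after a RefSeq start (GRCm38.p6), were at hand for 4 of the 7 members, in 5 windows; Il23a, Il27 and Il12rb1 had no entry. The windows of Il12a, Il12b and Ebi3, the cytokine chains with an entry, are shown, and that of the receptor chain Il12rb2 is described only. The motifs searched on both strands were kappaB (GGG, any 5 bases, CC), ISRE (GAAA, any 2 bases, GAAA), GAS TTCNNNGAA, AP-1 TGANTCA and CEBP TTGCNNAA. Capitals mark every match, and all windows below lie on the plus strand.
Il12b, chr11:44399813-44400112: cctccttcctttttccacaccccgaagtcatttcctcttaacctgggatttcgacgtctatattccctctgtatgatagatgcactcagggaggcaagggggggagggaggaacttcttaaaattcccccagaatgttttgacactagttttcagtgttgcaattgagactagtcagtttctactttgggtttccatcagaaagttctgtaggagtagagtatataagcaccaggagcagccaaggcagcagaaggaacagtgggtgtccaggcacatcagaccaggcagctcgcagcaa
Il12a window 1, chr3:68690394-68690693: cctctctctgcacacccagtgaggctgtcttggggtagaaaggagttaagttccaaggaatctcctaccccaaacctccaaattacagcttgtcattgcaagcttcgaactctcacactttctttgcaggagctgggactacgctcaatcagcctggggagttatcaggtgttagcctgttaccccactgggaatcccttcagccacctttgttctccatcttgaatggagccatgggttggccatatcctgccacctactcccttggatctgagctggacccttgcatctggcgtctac
Il12a window 2, chr3:68691174-68691473: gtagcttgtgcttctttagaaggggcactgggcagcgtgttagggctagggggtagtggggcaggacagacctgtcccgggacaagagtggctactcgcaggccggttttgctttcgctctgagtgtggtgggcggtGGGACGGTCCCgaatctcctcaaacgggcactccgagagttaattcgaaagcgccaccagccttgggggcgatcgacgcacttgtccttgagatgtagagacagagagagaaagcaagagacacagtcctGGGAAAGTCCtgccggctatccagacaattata
Ebi3, chr17:55952373-55952672: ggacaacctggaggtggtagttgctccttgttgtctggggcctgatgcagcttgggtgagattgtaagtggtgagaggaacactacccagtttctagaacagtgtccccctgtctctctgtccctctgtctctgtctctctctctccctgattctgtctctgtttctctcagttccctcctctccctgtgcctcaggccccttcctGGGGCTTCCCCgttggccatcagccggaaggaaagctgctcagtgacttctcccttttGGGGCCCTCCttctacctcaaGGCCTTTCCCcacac

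The Il12b window and the first Il12a window held none of the letters searched. The second Il12a window, at a start inside the gene, held kappaB letters on both strands at an overlapping site upstream of the start and once more downstream of it, 3 matches in all. The Ebi3 window held 6 kappaB matches, of which 4 overlap at 1 place on the 2 strands. The Il12rb2 window held 4 matches, overlapping kappaB letters on the 2 strands across the start and the GAS letters TTCTCAGAA at -123 to -115. The kappaB letters occur in 50.8% of the 32851 windows of the table, the ISRE letters in 3.44%, the GAS letters in 8.3%, the AP-1 letters in 7.81% and the CEBP letters in 10.8%. A match is a description of these letters and not of a bound site.

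Il12a, Il12b, Il27 and Il12rb1 were abundant in the M1 states and at or close to 0 in M0 and M2. Ebi3 and Il12rb2 were not near 0 outside M1, and Il23a was near 0 in every group. A gene was called at an adjusted p under 0.05. The comparison of M1 with M0 is a description, because the members were listed as near 0 outside M1. In the fit 5 of the 6 tested members were called higher in M1, against 34.6% of all genes, and nothing is read from that count. A zero in a library is compatible with up to 3 counts, which is 0.124 to 0.207 CPM at this depth. That floor and the intervals below cover counting error only.

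Il12b (ENSMUSG00000004296, GRCm38 chromosome 11, 44400063 to 44414033, plus strand) encodes the chain shared by IL-12 and IL-23. Its level was 268 ± 36.8 CPM in M1+ONX-0914 and 332 ± 44.3 CPM in M1 (SD, n = 4 each). Over the 4 libraries of a group it had 5 counts in M2+ONX-0914, 2 in M2, 0 in M0+ONX-0914 and 0 in M0. M1 was at least 9582-fold higher than M0, with 3 counts over the group as the floor. Every M1 library, with or without ONX-0914, lay far above every other library.

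Il12a (ENSMUSG00000027776, chromosome 3, 68690644 to 68698547, plus strand) encodes the chain that sets IL-12 and IL-35 apart from IL-23 and IL-27. It averaged 22.8 ± 2.71 CPM in M1+ONX-0914 and 44.2 ± 5.20 CPM in M1 (SD, n = 4 each). It had 0 counts in M2+ONX-0914, 5 in M2, 2 in M0+ONX-0914 and 1 in M0. The ratio of M1 to M0 was 3784, with a 95% counting interval of 679 to 149493. The ratio of M1 to M2 was 754, with an interval of 323 to 2323.

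Il27 (ENSMUSG00000044701, chromosome 7, 126589010 to 126594941, minus strand) encodes the p28 chain of IL-27. Its means were 260 ± 14.1 CPM in M1+ONX-0914, 323 ± 11.96 CPM in M1, 0.259 ± 0.227 CPM in M2+ONX-0914, 0.300 ± 0.144 CPM in M2, 0.794 ± 0.243 CPM in M0+ONX-0914 and 0.541 ± 0.256 CPM in M0 (SD, n = 4 each). M1 was 602 times M0, with an interval of 451 to 823, and every library outside M1 held at least 2 counts of Il27. The ranges of the 4 groups outside M1 overlapped between neighbours in the order of means.

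Ebi3 (ENSMUSG00000003206, chromosome 17, 55952640 to 55957022, plus strand), the partner of Il27 and Il12a, was measured in all groups. Its means were 15.2 ± 1.26 CPM in M1+ONX-0914, 17.7 ± 1.94 CPM in M1, 3.03 ± 0.810 CPM in M2+ONX-0914, 3.84 ± 0.515 CPM in M2, 5.21 ± 0.597 CPM in M0+ONX-0914 and 5.33 ± 0.660 CPM in M0 (SD, n = 4 each). M1 was 3.31 times M0, with an interval of 2.96 to 3.69. So the partner chain of Il27 differed between M1 and M0 on a far smaller scale than Il27 itself.

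Il23a (ENSMUSG00000025383, chromosome 10, 128296139 to 128298752, minus strand), the chain that defines IL-23, had 4 counts in M1+ONX-0914, 8 in M1, 3 in M2+ONX-0914, 3 in M2, 1 in M0+ONX-0914 and 0 in M0. No M1 library held more than 3 of these counts. No change of Il23a could be tested at this depth under the filter used.

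Il12rb1 (ENSMUSG00000000791, chromosome 8, 70808449 to 70821424, plus strand), the receptor chain shared by IL-12 and IL-23, averaged 52.2 ± 10.8 CPM in M1+ONX-0914, 81.5 ± 10.3 CPM in M1, 0.443 ± 0.0947 CPM in M2+ONX-0914, 0.0793 ± 0.0661 CPM in M2, 0.630 ± 0.0542 CPM in M0+ONX-0914 and 0.251 ± 0.168 CPM in M0 (SD, n = 4 each). M1 was 334 times M0, with an interval of 218 to 541. Il12rb2 (ENSMUSG00000018341, chromosome 6, 67291318 to 67376188, minus strand), the signalling chain of the IL-12 receptor, was low in every group and 1.19 times as high in M1 as in M0, with an interval of 0.963 to 1.47. For Il12rb2 each group's range overlapped that of its neighbour in the order of means, from 2.71 ± 0.542 CPM in M1 to 1.13 ± 0.320 CPM in M2+ONX-0914 (SD, n = 4 each).

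Per kilobase of exon, which allows levels of different genes to be set side by side, Il27 and Il12b led the family. In M1+ONX-0914 Il27 had 255 and Il12b 136 CPM per kilobase, and in M1 they had 316 and 169. Il12a, the other chain of IL-12, had 13.4 CPM per kilobase in M1+ONX-0914 and 26.0 in M1. Ebi3 had 13.2 in M1+ONX-0914 and 15.3 in M1, and Il12rb1 had 12.7 in M1+ONX-0914 and 19.8 in M1. Il12rb2 had 0.559 CPM per kilobase in M1+ONX-0914 and 0.714 in M1, and Il23a had 0.0254 in M1+ONX-0914 and 0.0551 in M1.

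**Figure D1:**
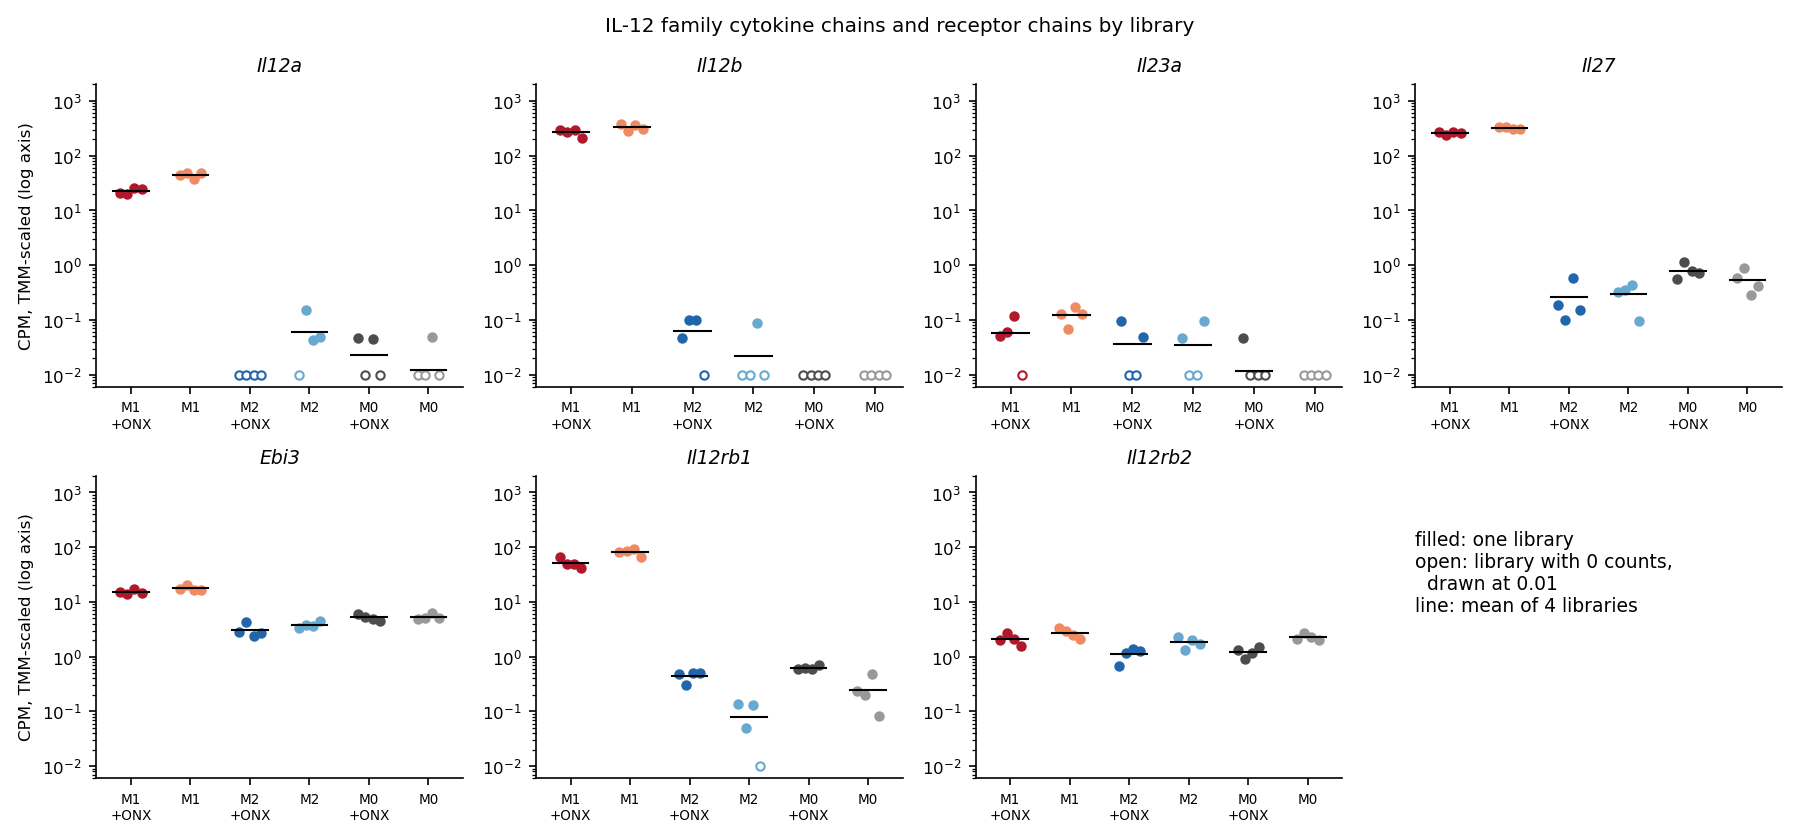
Level of each of the 7 genes in every library, as TMM-scaled CPM on a log axis, in the 6 groups of 4 libraries; filled points are libraries, open points are libraries with 0 counts drawn at 0.01, and lines are group means. Il12a, Il12b, Il27 and Il12rb1 are high in M1+ONX-0914 and M1 and near 0 elsewhere, Ebi3 and Il12rb2 are measured in all groups, and Il23a is near 0 throughout.

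With ONX-0914 in M1 cells, 4 of the 6 tested members fell: Il12a most, then Il12rb1, then Il12b and Il27. None rose. Across all genes 27.7% were called lower in this comparison. The median log2 change was -0.33 over the 6 tested members and -0.08 over all genes tested. In bulk RNA, fewer cells that express a gene and less of its RNA per cell cannot be told apart.

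Il12a had 20.6, 20.4, 25.5 and 24.9 CPM in the M1+ONX-0914 libraries, against 44.2, 48.5, 36.9 and 47.4 CPM in the M1 libraries. All 4 libraries with the inhibitor lay below all 4 without it. Il12a fell by 48.4% (log2 -0.95 ± 0.11 SE, adjusted p = 1.82e-07, edgeR quasi-likelihood test with Benjamini-Hochberg adjustment). Its log2 change without M1 replicate 2 was -0.91.

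Il12b had 289, 273, 295 and 214 CPM in M1+ONX-0914 and 374, 287, 366 and 303 CPM in M1. M1 replicate 2 lay within the range of the inhibited libraries, so the groups overlapped. Il12b fell by 19.4% (log2 -0.31 ± 0.10 SE, adjusted p = 0.0159). The call depended on single libraries: the log2 change was -0.25 without M1 replicate 1 (adjusted p = 0.0608), -0.26 without M1 replicate 3 (adjusted p = 0.0586) and -0.22 without M1+ONX-0914 replicate 4 (adjusted p = 0.0763). It also ended when only the libraries of this comparison were fitted (log2 -0.22, adjusted p = 0.180), and the log2 change was -0.38 without M1 replicate 2. Over all 31 alternatives the adjusted p of Il12b ran from 1.85e-05 to 0.180.

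Il27 had 273, 240, 266 and 260 CPM in M1+ONX-0914, against 330, 335, 311 and 314 CPM in M1. The groups did not overlap, with every inhibited library lower. The log2 change was -0.31 ± 0.09 SE (adjusted p = 0.00553), and -0.29 without M1 replicate 2. Ebi3 had 15.3, 14.1, 16.9 and 14.5 CPM in M1+ONX-0914 and 17.3, 20.5, 16.5 and 16.4 CPM in M1. Its ranges overlapped, and the log2 change of -0.22 ± 0.12 SE did not pass (adjusted p = 0.139). M1 replicate 2 was the highest Ebi3 library, and without it the log2 change was -0.14. Il23a had 1, 1, 2 and 0 counts in the M1+ONX-0914 libraries and 2, 1, 3 and 2 counts in the M1 libraries, too few for a statement on direction.

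Among the receptor chains, Il12rb1 had 67.3, 50.2, 49.8 and 41.5 CPM in M1+ONX-0914, against 83.2, 84.5, 91.2 and 66.9 CPM in M1. The highest inhibited library, replicate 1, lay just above the lowest M1 library, replicate 4. Il12rb1 fell by 35.9% (log2 -0.64 ± 0.12 SE, adjusted p = 5.28e-05; -0.62 without M1 replicate 2). Il12rb2 had 2.05, 2.70, 2.13 and 1.60 CPM in M1+ONX-0914 and 3.31, 2.97, 2.48 and 2.08 CPM in M1. These ranges overlapped, and the log2 change of -0.35 ± 0.21 SE did not pass (adjusted p = 0.192; -0.31 without M1 replicate 2).

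Beside these falls, 6 of the 7 tested B cell markers and 5 of the 8 macrophage markers were called lower in M1+ONX-0914 than in M1. So was 1 of the 5 tested dendritic cell markers, Clec9a (log2 -1.45, adjusted p = 0.000182). The share over all genes was 27.7%. The macrophage marker Icam2 was called higher (log2 0.40, adjusted p = 0.0315). Among the macrophage markers Csf1r, the receptor of the growth factor M-CSF, had a log2 change of -0.77, and Cd68 one of -0.07 (adjusted p = 0.583), or 0.10 without M1 replicate 2 (adjusted p = 0.137). Their part in the change of the IL-12 family genes was not tested. With only the libraries of the comparison fitted, 51.9% of the calls were higher in place of 37.4%, and the median over all genes moved by 0.09 on the log2 scale; the log2 changes of Il12a, Il12b, Il27 and Il12rb1 stayed negative.

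**Figure D2:**
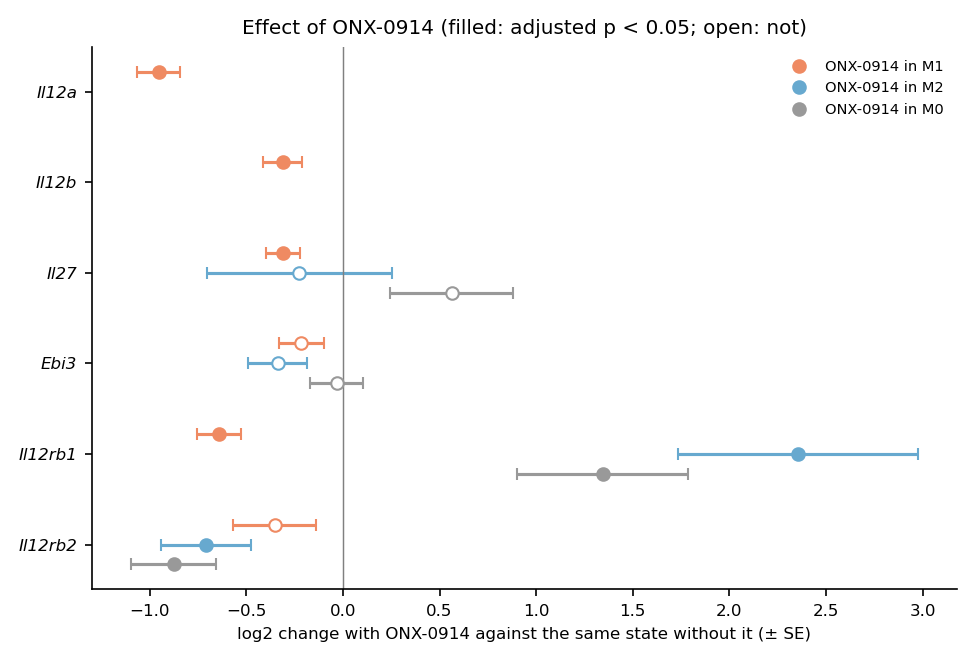
Log2 change with ONX-0914 (M1+ONX-0914 over M1, M2+ONX-0914 over M2, M0+ONX-0914 over M0) with its standard error, from the edgeR fit; filled points passed an adjusted p of 0.05, and changes are drawn only where each of the 2 groups had over 3 counts. Il12a, Il12b, Il27 and Il12rb1 lie below 0 in M1, while Il12rb1 lies above 0 in M2 and M0.

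The balance of the chains that pair with each other was compared between M1+ONX-0914 and M1 as the log2 ratio of their counts within a library, with 0.5 added to each count. Gene length adds the same constant to both groups and drops out of the difference. The ratio of Il12a to Il12b was -3.55 ± 0.32 in M1+ONX-0914 and -2.91 ± 0.35 in M1 (log2, SD, n = 4 each), a difference of -0.64 (2-sided exact permutation test, p = 0.0571, adjusted over the 5 pairs 0.143). The ratio of Il12a to Ebi3 was 0.58 ± 0.15 in M1+ONX-0914 and 1.32 ± 0.16 in M1, a difference of -0.74 with no overlap between the groups. Its exact permutation p of 0.0286 is the smallest that 4 against 4 libraries can give, and its adjusted value was 0.143.

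The ratio of Il27 to Ebi3 was 4.09 ± 0.09 in M1+ONX-0914 and 4.19 ± 0.11 in M1, a difference of -0.10 (exact permutation p = 0.200, adjusted 0.229). The ratio of Il12rb2 to Il12rb1 was -4.60 ± 0.34 in M1+ONX-0914 and -4.91 ± 0.23 in M1, a difference of 0.30 (exact permutation p = 0.229, adjusted 0.229). The ratio of Il23a to Il12b rested on 4 and 8 Il23a counts and differed by -0.72 (exact permutation p = 0.114, adjusted 0.190). No pair passed after adjustment over the 5 pairs. Without M1 replicate 2 the difference was -0.76 for Il12a to Ebi3, -0.53 for Il12a to Il12b and -0.15 for Il27 to Ebi3.

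**Figure D3:**
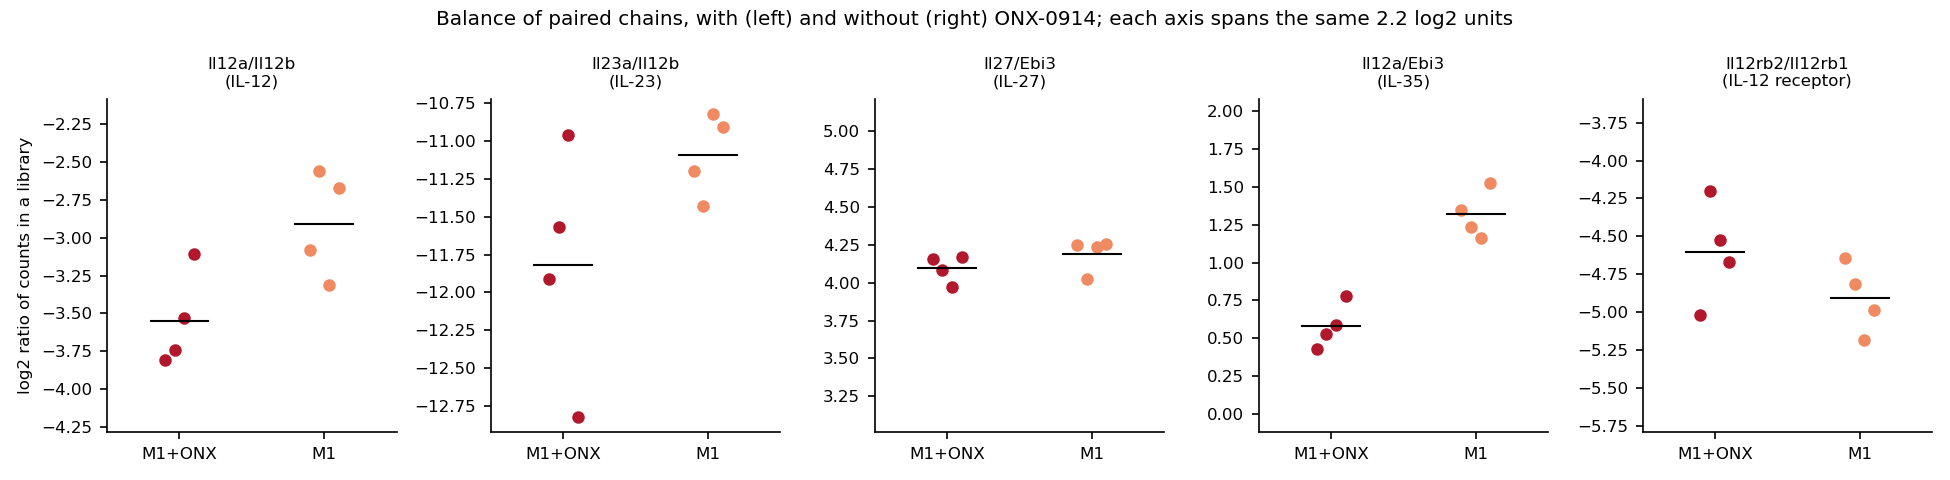
Log2 ratio of the counts of paired chains in each library of M1+ONX-0914 (left) and M1 (right), with lines at the group means; every axis spans the same number of log2 units. The groups are apart for Il12a to Ebi3 and overlap for the other 4 pairs.

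In M2 cells with ONX-0914 the receptor chains were called in opposite directions, Il12rb1 higher and Il12rb2 lower. Of all genes, 17.6% were called higher and 18.8% lower in this comparison. No cytokine chain passed the test. Il12rb1 had 0.477, 0.301, 0.496 and 0.496 CPM in M2+ONX-0914, against 0.138, 0.050, 0.130 and 0 CPM in M2, or 36 counts against 7 over the groups. All inhibited libraries were higher (log2 2.35 ± 0.62 SE, adjusted p = 0.00374). These levels are under 1 CPM, where M1 cells had 81.5 CPM. Il12rb1 passed the count filter through its M1 groups: with only the M2 libraries fitted it fell below the filter and had no test, and in the other 30 alternatives it was called each time, with an adjusted p between 2.96e-05 and 0.0149.

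Il12rb2 had 0.668, 1.15, 1.39 and 1.29 CPM in M2+ONX-0914 and 2.25, 1.35, 2.04 and 1.69 CPM in M2. Only M2 replicate 2 fell within the range of the inhibited libraries. The log2 change was -0.71 ± 0.23 SE (adjusted p = 0.0177). It was -0.60 without M2 replicate 1 (adjusted p = 0.0687) and -0.52 without M2+ONX-0914 replicate 1 (adjusted p = 0.0868), and over 31 alternatives the adjusted p ran from 0.00881 to 0.0868.

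Ebi3 had 2.81, 4.22, 2.38 and 2.73 CPM in M2+ONX-0914, against 3.39, 3.75, 3.64 and 4.58 CPM in M2. Replicate 2 of M2+ONX-0914 stood above the others of its group and within the M2 range. The log2 change of -0.34 ± 0.15 SE did not pass (adjusted p = 0.0891). Without that library it was -0.54 (adjusted p = 0.00608), and over 31 alternatives the adjusted p ran from 0.00608 to 0.275. Il27 had 21 counts in M2+ONX-0914 and 26 in M2 (log2 -0.23 ± 0.48 SE, adjusted p = 0.758). Il12a had 0 counts in M2+ONX-0914 and 5 in M2 (adjusted p = 0.0521, between 0.0279 and 0.176 over 30 alternatives), and it passed in 4 of them, with DESeq2 size factors in edgeR (log2 -3.35, adjusted p = 0.0488), without M1 replicate 2, without M1 replicate 3 and without M2 replicate 1. Il12a and Il27 too were below the filter with only the M2 libraries fitted. All 7 tested B cell markers and 4 of the 8 macrophage markers were also lower with the inhibitor in M2, where 18.8% of all genes were. The part of these cells in the changes was not tested.

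In M0 cells with ONX-0914 both receptor chains were called, Il12rb1 higher and Il12rb2 lower, where 9.54% of all genes were called higher and 11.4% lower. Il12rb1 had 0.604, 0.613, 0.593 and 0.711 CPM in M0+ONX-0914, against 0.241, 0.196, 0.483 and 0.0828 CPM in M0. All inhibited libraries were higher, with 54 counts against 21 over the groups (log2 1.34 ± 0.44 SE, adjusted p = 0.0307). The call ended in 8 of 31 alternatives, with an adjusted p between 0.00273 and 0.142 over all of them. The log2 change was 1.34 without M0 replicate 1, 1.26 without M0 replicate 2 and 1.02 without M0 replicate 4. It was 1.36, 1.36, 1.37 and 1.28 without replicate 1, 2, 3 or 4 of M0+ONX-0914, and 1.28 by limma voom.

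Il12rb2 had 1.35, 0.896, 1.19 and 1.52 CPM in M0+ONX-0914, against 2.12, 2.70, 2.32 and 1.99 CPM in M0. The groups did not overlap, and Il12rb2 fell by 45.5% (log2 -0.88 ± 0.22 SE, adjusted p = 0.00506), a call kept in all 31 alternatives. Ebi3 averaged 5.21 ± 0.597 CPM in M0+ONX-0914 and 5.33 ± 0.660 CPM in M0 (SD, n = 4 each; log2 -0.03 ± 0.14 SE, adjusted p = 0.908). Il27 had 68 counts in M0+ONX-0914 and 46 in M0 (log2 0.56 ± 0.32 SE, adjusted p = 0.232). All 7 tested B cell markers were lower with the inhibitor in M0 as well, where 11.4% of all genes were. Of the 8 macrophage markers 2 were lower, Csf1r (log2 -0.17) and Lyz2 (log2 -0.33), and 1 was higher, Itgam (log2 0.40, adjusted p = 0.000693). The part of these cells was not tested.

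Il12rb2 shares 1519 of its 3794 exon bases with Serbp1 on the other strand, and the sources used here do not say whether strand was used in counting, so reads of the overlapping genes may not have been told apart. Serbp1, an mRNA-binding protein gene, averaged 193 ± 10.2 CPM in M0+ONX-0914 and 217 ± 17.1 CPM in M0 (SD, n = 4 each; log2 -0.16 ± 0.06 SE, adjusted p = 0.0356). In M2+ONX-0914 against M2 its log2 change was -0.07 ± 0.06 SE (adjusted p = 0.340). Il27 shares 103 exon bases with Apobr, whose log2 change in M1+ONX-0914 was 0.30 ± 0.10 SE (adjusted p = 0.0113), opposite in sign to that of Il27. Ebi3 shares 270 exon bases with the antisense gene Gm16712, which had 242 counts over all libraries.

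The effect of ONX-0914 on Il12rb1 in M1 differed in sign from that in M2 and in M0. Outside M1 the comparison rests on low counts, 36 in M2+ONX-0914, 7 in M2, 54 in M0+ONX-0914 and 21 in M0. With only the M2 libraries fitted, Il12rb1 fell below the count filter. The effect in M1 minus that in M2 was -2.99 ± 0.62 SE on the log2 scale (interaction term, adjusted p = 0.00128), where 9.68% of all genes were called lower. The effect in M1 minus that in M0 was -1.98 ± 0.46 SE (adjusted p = 0.00237), where 12.4% were called lower. Without M1 replicate 2 these were -2.98 and -1.97, and both were called in all 31 alternatives. The effect in M2 minus that in M0 was 1.01 ± 0.81 SE and did not pass (adjusted p = 0.571), and none of the 6 tested members was called there, against 6.17% of all genes.

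For the other members no difference between states passed. The terms of Il12a and Il12b say little, because outside M1 no group held more than 5 counts of either. Il12b had 0 counts in M0+ONX-0914 and in M0, so its term against M0 could not pass. Il12rb2, lower with the inhibitor in M2 and M0 and not called in M1, had an effect in M1 minus that in M0 of 0.52 ± 0.31 SE (adjusted p = 0.260) and in M1 minus that in M2 of 0.36 ± 0.32 SE (adjusted p = 0.534). Il27 had an effect in M1 minus that in M0 of -0.87 ± 0.33 SE (adjusted p = 0.0664), which passed in 5 of 31 alternatives, with an adjusted p between 0.0185 and 0.236. Among these were leaving out M0 replicate 2 (log2 -1.19), M0+ONX-0914 replicate 1 (-1.01) and M2+ONX-0914 replicate 3 (-0.87). For Ebi3 the effect in M1 minus that in M0 was -0.18 ± 0.18 SE (adjusted p = 0.529).

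M2 cells without inhibitor differed from M0 in 1 of the 6 tested members, Ebi3, which fell; 17.5% of all genes were called lower. Ebi3 had 3.39, 3.75, 3.64 and 4.58 CPM in M2, against 4.97, 5.0, 6.32 and 5.05 CPM in M0, with no overlap. Ebi3 changed by log2 -0.47 ± 0.14 SE (adjusted p = 0.00951) and was called in all 31 alternatives. Il12rb1 had 7 counts in M2 and 21 in M0 (log2 -1.51 ± 0.70 SE, adjusted p = 0.0980), and passed in 4 of 30 alternatives with an adjusted p between 0.0365 and 0.363, among them leaving out M0 replicate 4 (log2 -1.83, adjusted p = 0.0453). Il27 had 26 counts in M2 and 46 in M0 (log2 -0.81 ± 0.40 SE, adjusted p = 0.120). With only the M2 and M0 libraries fitted, Il12rb1 and Il27 fell below the count filter and had no test. Il12rb2 averaged 1.83 ± 0.395 CPM in M2 and 2.28 ± 0.308 CPM in M0 (SD, n = 4 each; log2 -0.31 ± 0.21 SE, adjusted p = 0.274).

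Il23r, Il27ra and Il6st are the partner chains that complete the receptors of IL-23 and IL-27. Il23r, which completes the IL-23 receptor, had 63 counts in M1+ONX-0914, 95 in M1, 0 in M2+ONX-0914, 3 in M2, 0 in M0+ONX-0914 and 0 in M0. Like Il12rb1 it was counted almost entirely in the M1 states. Its log2 change with ONX-0914 in M1 of -0.73 ± 0.38 SE did not pass (adjusted p = 0.131). Il27ra, the specific chain of the IL-27 receptor, fell with ONX-0914 in M1 to 3.75 ± 0.312 CPM, against 6.58 ± 1.01 CPM in M1 without it (SD, n = 4 each; log2 -0.81 ± 0.16 SE, adjusted p = 0.000119). It also fell with the inhibitor in M2 and in M0, to 7.46 ± 1.76 CPM in M2+ONX-0914, against 12.7 ± 0.860 CPM in M2, and to 5.07 ± 0.603 CPM in M0+ONX-0914, against 7.68 ± 1.16 CPM in M0. Il6st, the gp130 chain shared with IL-6 receptors, rose with ONX-0914 in M1 to 113 ± 6.47 CPM, against 99.5 ± 3.30 CPM (log2 0.19 ± 0.05 SE, adjusted p = 0.00340), where 16.6% of all genes were called higher. In M2 it fell to 378 ± 4.86 CPM with the inhibitor, against 577 ± 26.2 CPM without it (log2 -0.61, adjusted p = 8.7e-11). In M0 it fell to 172 ± 6.52 CPM, against 209 ± 8.27 CPM (log2 -0.28, adjusted p = 0.00011). The effect on Il6st in M1 minus that in M0 was 0.47 ± 0.07 SE (adjusted p = 1.8e-05). The effect on Il6st in M1 minus that in M2 was 0.80 ± 0.07 SE (adjusted p = 7.57e-09), opposite in sign to the same difference for Il12rb1.

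**Figure D4:**
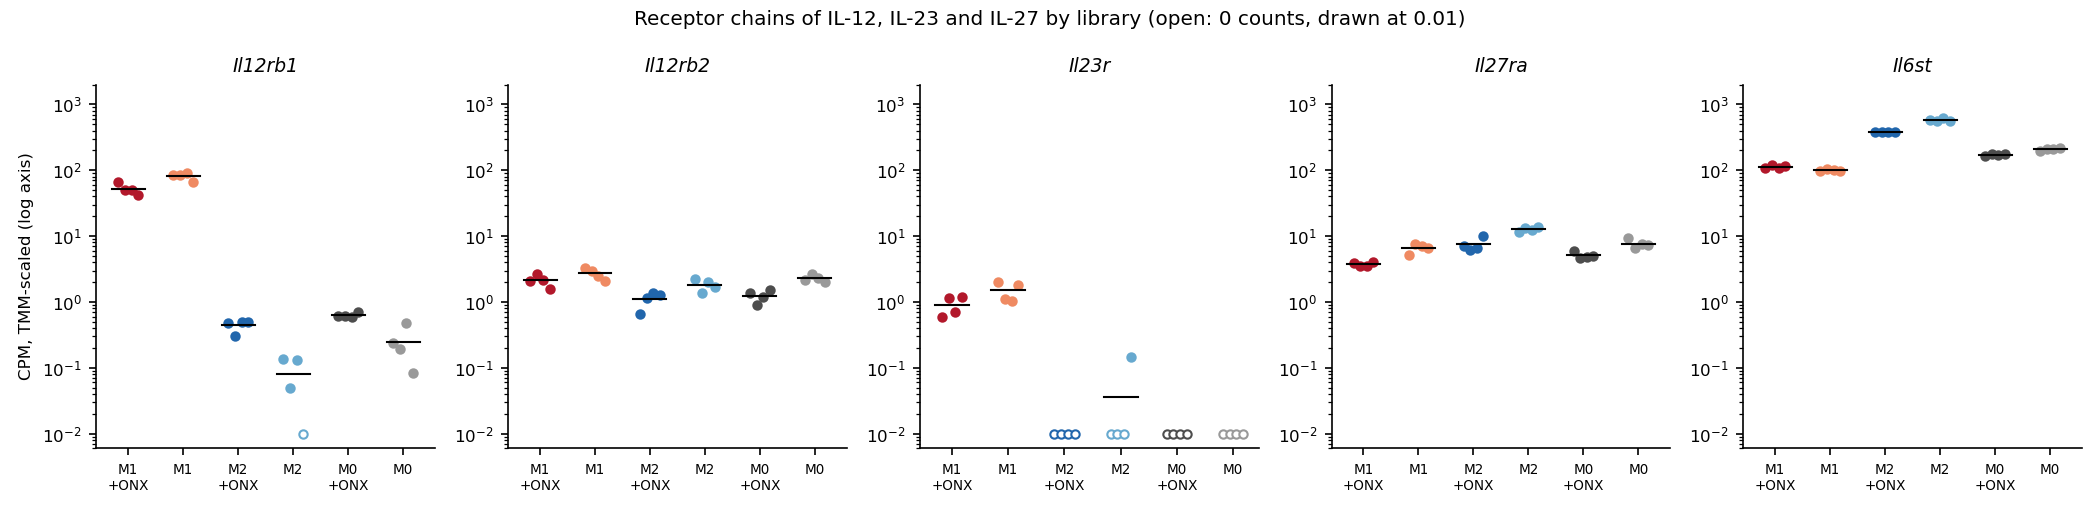
Level of the receptor chains in every library, as TMM-scaled CPM on a log axis; open points are libraries with 0 counts, drawn at 0.01, and lines are group means. Il12rb1 is high in M1+ONX-0914 and M1 alone, and Il23r is low and counted almost entirely in these groups. Il6st is highest in M2, and Il12rb2 and Il27ra are measured in all groups.

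Genes of the pathway downstream and upstream of these cytokines were read from lists. Of 5 kinases and STAT genes, 4 fell with ONX-0914 in M1, where 27.7% of all genes were called lower, and none rose. The list median was -0.32, against -0.08 over all genes. Stat3, which carries signals of IL-23 and IL-27, had 214 ± 6.90 CPM in M1+ONX-0914 and 362 ± 39.7 CPM in M1 (SD, n = 4 each; log2 -0.76 ± 0.06 SE, adjusted p = 3.98e-11). The log2 change was -0.56 for Tyk2 and -0.32 for Jak2, the kinases of the IL-12 receptor, and -0.12 for the kinase gene Jak1 (adjusted p = 0.0255). Stat4, the main transducer of IL-12 in lymphocytes, was at 1.06 ± 0.232 CPM in M1+ONX-0914 and 1.21 ± 0.308 CPM in M1 (adjusted p = 0.692). In M0 none of the 5 was called, where 9.54% of all genes were called higher and 11.4% lower. In M2 2 were lower, where 18.8% of all genes were.

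Of 13 factors known to activate genes of this family in myeloid cells, 5 fell with ONX-0914 in M1, where 27.7% of all genes were called lower, none rose, and the list median was -0.21. Nfkbiz, an inhibitor-like cofactor of NF-kappaB needed for Il12b induction in mice, had a log2 change of -0.63, Spi1, the myeloid factor PU.1, of -0.48, Nfkb1 of -0.41 and Batf2 of -0.37. Irf1, an interferon-induced activator of Il12a, had 807 ± 83.2 CPM in M1+ONX-0914 and 895 ± 69.3 CPM in M1 (SD, n = 4 each; log2 -0.15 ± 0.07 SE, adjusted p = 0.0809). Rel, the c-Rel subunit, had a log2 change of -0.20 ± 0.10 SE (adjusted p = 0.0975) and Irf8 one of -0.23 ± 0.14 SE (adjusted p = 0.190). Without M1 replicate 2 Rel was called too (log2 -0.33, adjusted p = 2.29e-05), which made 6 of the 13 lower, where 28.4% of all genes were. With the inhibitor in M0, 2 were lower, Irf1 (log2 -0.36, adjusted p = 0.00149) and Nfkb1 (log2 -0.21), where 11.4% of all genes were. In M2 2 were lower, Irf1 (log2 -0.26, adjusted p = 0.00832) and Rel (log2 -0.27), where 18.8% of all genes were. Irf7 was higher there (log2 0.75, 10.9 ± 7.68 CPM in M2+ONX-0914), where 17.6% of all genes were.

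Of 8 genes known to restrain the family, 7 fell with ONX-0914 in M1 and 1 rose, with a list median of -0.44. Among all genes 27.7% were called lower there and 16.6% higher. Bcl6, a transcriptional repressor, had 22 ± 1.36 CPM in M1+ONX-0914 and 48.6 ± 2.23 CPM in M1 (SD, n = 4 each; log2 -1.14 ± 0.06 SE, adjusted p = 7e-14). Il10, the cytokine that dampens IL-12 production, had a log2 change of -1.07 at under 1 CPM in both groups, Maf of -0.88 and Socs1, an inhibitor of Janus kinases, of -0.50. Nfil3, a repressor of Il12b, was the gene that rose, by 0.43 on the log2 scale. With the inhibitor in M2, 6 of the 8 fell, Nfil3 among them (log2 -0.57), where 18.8% of all genes were called lower, and in M0 4 fell, where 11.4% were; none rose in either. Without M1 replicate 2, 6 of the 8 fell in M1, and Bcl3 had a log2 change of -0.22 (adjusted p = 0.0521).

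**Figure D5:**
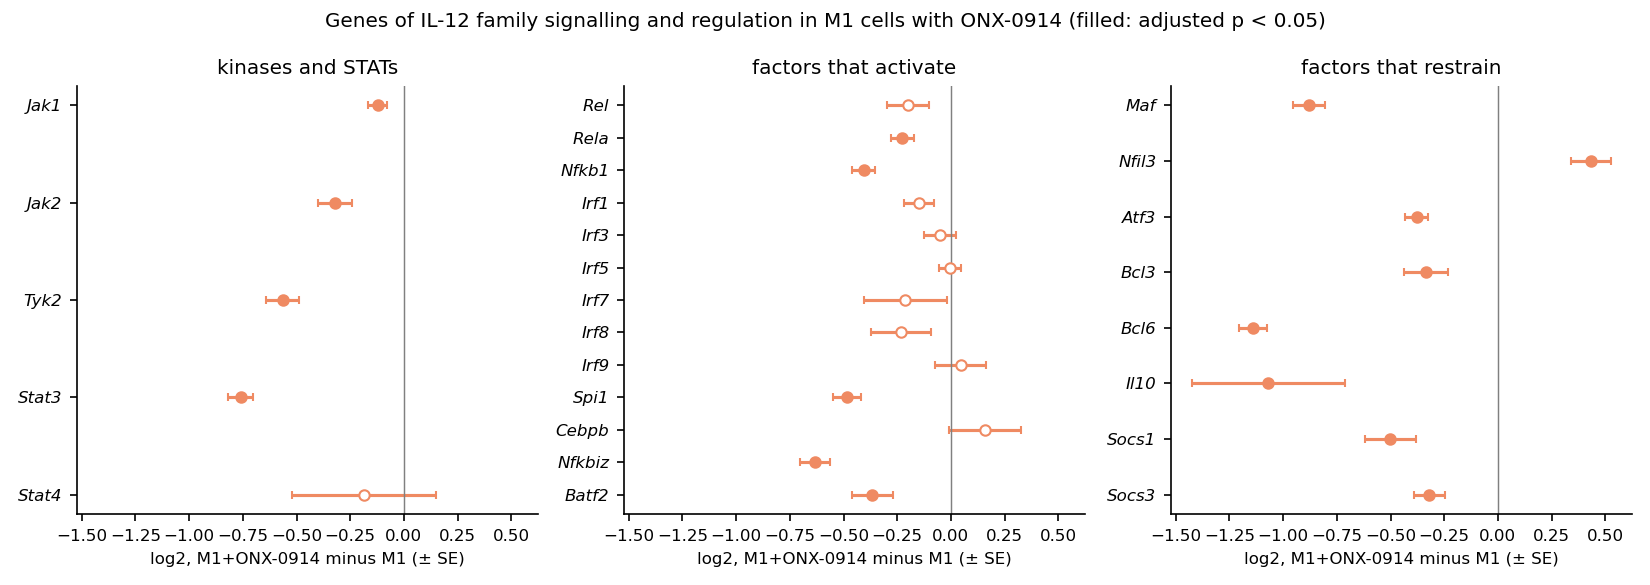
Log2 change of M1+ONX-0914 over M1, with its standard error, for the listed kinases and STAT genes, activating factors and restraining genes; filled points passed an adjusted p of 0.05. Called genes lie below 0 in all 3 lists, with Nfil3 the exception above 0.

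Of 8 genes of lymphocyte responses to IL-12 and IL-23, 3 passed the count filter. Il17a, the product of IL-23-driven lymphocytes, had no count in M1+ONX-0914 or M1, and Ifng, the main product of IL-12-stimulated T and NK cells, was at 0.342 ± 0.0997 CPM in M1+ONX-0914 and 0.680 ± 0.305 CPM in M1 (SD, n = 4 each), too low to be tested. The T and NK cell markers summed to 8.03 to 12.9 CPM in M1+ONX-0914 and 18.7 to 24.1 CPM in M1, most of it Lck.

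The genes whose 6 group means lay closest to those of each member, by the root mean square difference of log2 CPM after centring each gene, are given as a description over 9962 candidate genes. For Il12a these were Cxcl11 (0.32), a chemokine induced by interferon, Ifi205 (0.39) and Ccl12 (0.39). For Il12b they were Ccl5 (0.35), Ifi213 (0.44) and Mx1 (0.51), and for Il27 Slfn1 (0.27), Gbp4 (0.35) and Tnf (0.36). Il12rb1 was nearest to the interferon-induced genes Rsad2 (0.46) and Usp18 (0.61) and to Olfr56 (0.54). Ebi3 was nearest to Ccdc88b (0.06), the kinase gene Lyn (0.11) and Rasa4 (0.12), and Il12rb2 to Rhoc (0.13), Fam49b (0.14) and Arl10 (0.15). Cxcl11, the nearest to Il12a, had a log2 change with ONX-0914 in M1 of -0.33, where Il12a had -0.95.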

How the data were processed

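The authors deposited 1 table of raw read counts per Ensembl gene for the 24 libraries, without normalization. Per the submitters' processing notes FastQC 0.11.9, cutadapt 2.8, Bowtie2 2.2.5 and Picard were used with build mm10; the sources used here give neither their order nor the counting software, strand handling or gene annotation. Per the labels, each library is a numbered replicate from a pool of 2 to 3 mice. Libraries were treated as independent, and whether groups shared a pool is not known.

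Symbols matched for 54409 of the 54532 features; the rest held 0.0282% of the counts. Positions and exon lengths are from GENCODE (GRCm38). Genes were kept by filterByExpr over the 6 groups, leaving 14692 genes with 99.927% of the counts. After TMM scaling, edgeR 4.0.16 (R 4.3.3) fitted 1 mean for each group by quasi-likelihood across the 24 libraries, with 18 residual degrees of freedom and no block. P-values were adjusted over all genes tested by Benjamini-Hochberg, and a gene was called under 0.05. Standard errors were taken from the F statistic as the log2 change over its square root. Levels are TMM-scaled CPM. Ratios of counts have exact 95% intervals, and 3 counts over a group stood for 0. Such bounds cover counting error only. The depth was 18.2 to 22.9 times 1e6 counts per library, with no pair of replicates alike within sampling noise. Chain ratios were tested by exact permutation in SciPy 1.17.1.

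The members, gene lists, tests and alternatives were chosen with earlier results of these data known. Named are all 7 members, up to 4 called genes per list and comparison with the largest change (Il23r, Irf1, Irf8, Rel, Stat4, Cd68, Il17a and Ifng were added after their values were seen), and the 3 genes nearest to each member. One listed gene is not reported here. The alternatives were DESeq2 1.42.0 size factors and Wald test, limma 3.58.1 voom with quality weights, a minimum of 1 CPM in 4 libraries, no filter, a fit of the comparison's own libraries, the replicate number as a block, leaving out each library and other pseudocounts. Reading the gene lists without M1 replicate 2 was added after seeing the data. The pipeline was tested on simulated data.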

Additional observations from a re-analysis of the deposited data

Results flagged for a closer look

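The levels and ratios of 42 groups were screened for a library far from the other 3; groups with 3 or fewer counts were left out, and chance alone marks about 1 in 20 groups. Ebi3 in M0 replicate 3 stood above the other M0 libraries at 6.32 CPM. Il12rb1 in M0+ONX-0914 replicate 4 stood above its group at 0.711 CPM, with 15 counts against 13, 13 and 13. Il12rb1 in M2+ONX-0914 replicate 2 stood below its group at 0.301 CPM, with 6 counts against 10, 10 and 10. Both marks rest on a difference of a few counts. The log2 ratio of Il27 to Ebi3 counts in M1 replicate 2, the library that stands apart in mitochondrial share, was below the others of its group at 4.03.

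Il12rb1 was also marked because the effect of ONX-0914 differed between states by interaction terms, -1.98 for M1 minus M0 (adjusted p = 0.00237) and -2.99 for M1 minus M2 (adjusted p = 0.00128) on the log2 scale. Each of the 4 inhibited libraries was higher in M2 and in M0, at under 1 CPM, while the M1 ranges overlapped with lower values in M1+ONX-0914. Outside M1 the interaction terms rest on low counts, and Il12rb1 fell below the count filter with only the M2 libraries fitted.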

How the results depend on the processing

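Of 1476 log2 changes of members under the alternatives, 1446 kept their side of the threshold, 16 passed newly and 14 no longer passed. A sign changed, or the value became 0, in 11, all uncalled both ways, of Il27 and Il12b and of Ebi3 in M0; no called change turned round. The number of members called in M2 against M0 was 1, and 2 by the DESeq2 Wald test, without a filter and with a replicate block (Il12rb1 added), and 1 to 2 without each library. For the effect in M1 minus that in M0 it was 1, and 2 by the DESeq2 Wald test and without a filter (Il27 added), and 1 to 2 without each library. With ONX-0914 in M0 it was 2, and 1 by limma voom and 1 to 2 without each library. With ONX-0914 in M2 it was 2, and 1 when only the libraries of the comparison were fitted, where Il12rb1 fell below the filter, and 1 to 3 without each library. The genes called for the effect in M2 minus that in M0 numbered 907, and 1847 by voom, 1590 with the comparison's libraries alone and 660 to 1672 without each library, the highest without M1 replicate 2. With ONX-0914 in M0 3079 genes were called, and 4622 by voom. The causes were not tested.

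Same-numbered libraries deviated from their group means with correlations of -0.08 to 0.13. These values cannot settle whether same-numbered libraries came from the same mice. The replicate block changed no other member's call. With only the libraries of the comparison fitted, the share of calls that were higher was 55.7% in place of 35.8% for M1 minus M0, 57.8% in place of 28.2% for M1 minus M2 (39.2% with DESeq2 size factors) and 45.3% in place of 55.7% for M2 minus M0. It moved the median over all genes by 0.11 (log2) for M1 minus M2. Without TMM 10 of 42 group levels moved by over 1 SD, and with DESeq2 size factors 0 did. All 55 alternatives of the chain ratios kept their side of the threshold, but for most of them this was fixed in advance. With 4 against 4 libraries and 5 pairs, a call needed at least 3 pairs at the smallest p. With a library left out, the exact test could give no p under 0.05, and the block none under 0.125. Il23a was tested without a filter only (M1+ONX-0914 over M1, log2 -1.04, adjusted p = 0.614). Depth limits Il12rb1, Il27, Il12a and Il12b outside M1, and doses and times are not known.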
